A study of Mus musculus with 6 samples.

Results

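Single-nucleus RNA and open chromatin (ATAC) counts from the mouse retina were read for 10 circadian clock genes: Per1, Per2, Per3, Cry1, Nr1d1, Nr1d2, Dbp, Ciart, Arntl and Clock. They were picked by symbol as known parts of the clock, out of 32285 genes in the tables, and all 10 were present. The nuclei came from C57BL/6J retinas in 3 groups with 1 library each. WIF1-2w and WIF1-4w were retinas 2 and 4 weeks after an AAV2/2 vector that overexpresses the Wnt inhibitor Wif1 (the labels count the weeks as AVI, an abbreviation they do not spell out), and Ctrl was the retina of naïve mice. The design text gives 2 eyes per group, with no word on pooling, and names 2 vectors that drive HA-tagged Wif1 from the CMV promoter, CMV-Wif1-HA-IRES-GFP and the same without IRES-GFP, and does not say which was used here. It also names a CMV-IRES-GFP control vector, but 0 of the 3 libraries came from it, so injection, vector and WIF1 cannot be told apart. Ages and times of collection are not given in the labels.

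The mammalian clock is a feedback loop. ARNTL (also called BMAL1) and CLOCK bind E-box sequences and switch on Per, Cry, Nr1d, Dbp and Ciart genes. PER, CRY and CIART proteins then block ARNTL and CLOCK, and the nuclear receptors NR1D1 and NR1D2 repress Arntl. Arntl therefore peaks at the opposite time of day to Dbp, Nr1d1 and the Per genes in most tissues, Cry1 peaks later than Per, and Clock itself cycles weakly. The retina runs such loops in several of its own cell types, and they shape light sensitivity and dopamine signalling. Opposite-phase genes were read by cell type to see whether the clock stood at the same phase in the 3 libraries.

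With 1 library per group, no difference between groups could be tested. All intervals below are 95% intervals that cover counting error only. Nuclei were clustered without the clock genes and named from marker genes. The classes with enough nuclei were rod-like (5585 in WIF1-2w, 5971 in WIF1-4w and 4141 in Ctrl), cone-like (456, 440 and 370), bipolar-like (1614, 1640 and 1650), amacrine-like (225, 157 and 511), Müller-like (277, 243 and 125) and endothelial-like nuclei (54, 78 and 68). All markers of these classes were detected in their own class in every library. The largest rod-like clusters were numbers 3, 4 and 6 in WIF1-2w, 8, 15 and 19 in WIF1-4w, and 0, 15 and 19 in Ctrl. WIF1-4w and Ctrl thus shared 15 and 19, while those of WIF1-2w were other clusters. The libraries differed in depth, with a median of 799 UMIs (unique RNA molecules) per kept nucleus in WIF1-2w, 1196 in WIF1-4w and 1628 in Ctrl. WIF1-2w stood apart in Gm42418 and AY036118, a pair of genes that collect ribosomal RNA reads. Their summed level across the first 5 classes was 340 to 469 CPM (a gene's UMIs scaled to the total UMIs of the class) in WIF1-2w, against 3205 to 4596 CPM in WIF1-4w and 4027 to 6558 CPM in Ctrl. Pairs of libraries shared between 142 and 207 cell barcodes. Rod RNA was present in every other class: the 11 rod markers, all detected in all classes, summed to 1789, 1879 and 3981 CPM in bipolar-like nuclei of WIF1-2w, WIF1-4w and Ctrl. In rod-like nuclei they summed to 32562, 26383 and 32156 CPM.

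Promoter sequences of 9 of the 10 genes, all but Per2, were matched in RefSeq (GRCm38.p6, the build also called mm10). They are shown because the clock acts through short motifs near gene starts. The 250 bases before each start were searched on both strands for the E-box CACGTG, the D-box TTATGTAA that DBP binds, the RRE that NR1D proteins bind, and the CRE TGACGTCA. Of all 32851 promoters in the table, 6.02% held the E-box, 0.819% the D-box, 0.177% the RRE and 1.55% the CRE. A total of 4 of the 9 clock genes searched had a match, in 1 of the promoters of each, and all matches were E-boxes or D-boxes. Ciart had 3 E-boxes, starting 116, 58 and 44 bases before the gene start. Per1 had 1 E-box at 166 bases in the first of its 2 promoters, Cry1 had 1 at 60 bases, and Per3 had 2 D-boxes at 205 and 158 bases. Capitals mark the matches, and the Arntl promoter, with none, is shown beside them because it had fewer ATAC counts in bipolar-like nuclei. Each printed window lay inside an open chromatin peak that the authors called in each of the 3 libraries.
Ciart, chr3:95882229-95882478, minus strand: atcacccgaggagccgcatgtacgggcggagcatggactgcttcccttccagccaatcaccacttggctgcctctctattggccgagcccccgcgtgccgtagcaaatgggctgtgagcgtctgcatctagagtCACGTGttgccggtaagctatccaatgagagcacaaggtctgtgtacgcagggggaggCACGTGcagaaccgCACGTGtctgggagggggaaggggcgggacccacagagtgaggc
Per1, chr11:69098699-69098948, plus strand: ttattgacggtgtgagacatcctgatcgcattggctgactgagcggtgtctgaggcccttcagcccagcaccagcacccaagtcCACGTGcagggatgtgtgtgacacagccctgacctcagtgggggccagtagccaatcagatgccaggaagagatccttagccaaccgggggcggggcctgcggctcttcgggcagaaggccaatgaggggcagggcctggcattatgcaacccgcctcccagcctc
Cry1, chr10:85185055-85185304, minus strand: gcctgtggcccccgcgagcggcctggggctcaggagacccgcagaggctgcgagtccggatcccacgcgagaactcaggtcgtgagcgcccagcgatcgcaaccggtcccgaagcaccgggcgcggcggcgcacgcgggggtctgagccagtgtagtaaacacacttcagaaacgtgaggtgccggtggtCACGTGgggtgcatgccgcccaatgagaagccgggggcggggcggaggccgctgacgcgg
Per3, chr4:151044666-151044915, minus strand: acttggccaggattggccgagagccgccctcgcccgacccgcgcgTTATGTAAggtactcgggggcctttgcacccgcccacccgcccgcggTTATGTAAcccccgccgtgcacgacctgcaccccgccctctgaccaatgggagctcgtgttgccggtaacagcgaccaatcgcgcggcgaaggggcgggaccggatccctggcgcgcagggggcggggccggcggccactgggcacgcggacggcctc
Arntl, chr7:113207215-113207464, plus strand: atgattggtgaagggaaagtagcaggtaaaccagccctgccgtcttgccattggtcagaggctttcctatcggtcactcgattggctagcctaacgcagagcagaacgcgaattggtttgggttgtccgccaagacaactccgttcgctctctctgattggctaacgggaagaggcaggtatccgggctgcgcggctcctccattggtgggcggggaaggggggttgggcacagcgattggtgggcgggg

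The clearest contrast was between cell classes within a library. In bipolar-like nuclei, the interneurons that carry photoreceptor signals onward, 6 of the 10 genes were at least 1.5-fold higher than in rod-like nuclei in all 3 libraries: Nr1d1, Dbp, Ciart, Per1, Per2 and Per3. Among all genes with at least 30 UMIs in the higher class, 23.8% were that much higher in all 3 libraries. Arntl was the 1 gene at least 1.5-fold lower in all 3, where 22.4% of all genes were. Counted per library, 7 genes were higher in WIF1-2w, 6 in WIF1-4w and 7 in Ctrl, and 27.8%, 28.3% and 29.0% of all genes were. The class comparison was made inside each library, so it does not depend on how libraries are scaled to each other. Rod RNA in bipolar-like nuclei and depth differed between libraries, and their part in these ratios was not tested.

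**Figure D1:**
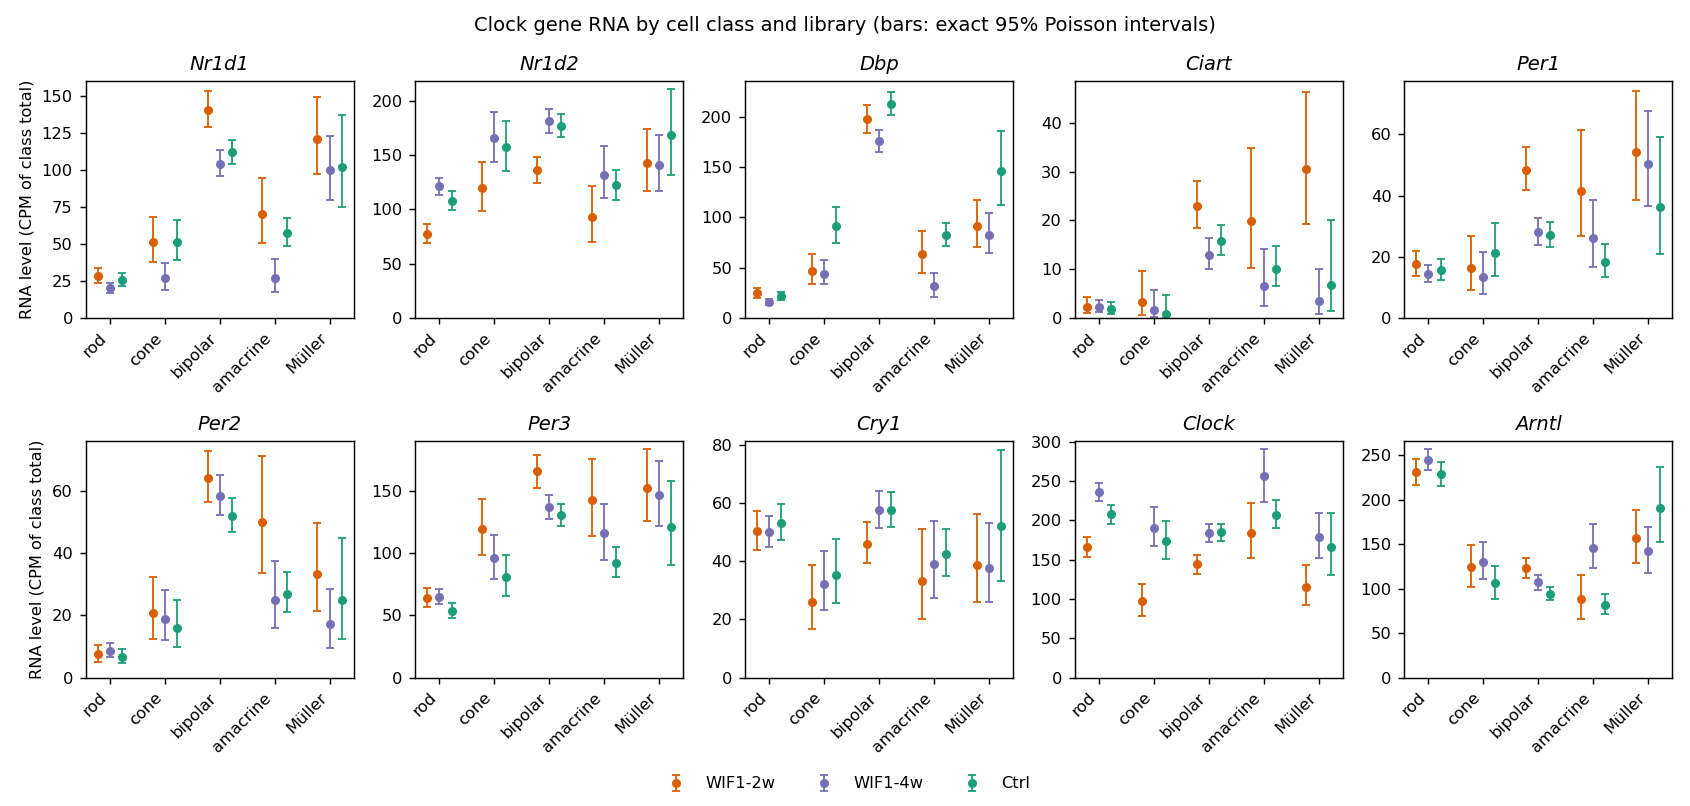
RNA level (CPM of the class total, linear axes from 0, each with its own scale) of the 10 clock genes in 5 cell classes, for WIF1-2w, WIF1-4w and Ctrl; points are single libraries and bars are exact 95% Poisson intervals. Nr1d1, Dbp and Per2 stand higher in bipolar-like than in rod-like nuclei of every library, and Arntl stands lower.

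Dbp, Ciart and Per2 had the highest ratios of bipolar-like over rod-like level among the members in each library. Dbp (ENSMUSG00000059824, mm10 chr7:45705100-45710203) encodes a transcription factor that carries clock timing to D-box genes. Its level was 198 CPM (184 to 212) in WIF1-2w, 176 CPM (165 to 187) in WIF1-4w and 213 CPM (202 to 225) in Ctrl in bipolar-like nuclei. In rod-like nuclei it was 24.5, 15.8 and 21.7 CPM, so Dbp was 8.08-fold (6.59 to 10.0), 11.1-fold (9.14 to 13.6) and 9.84-fold (8.16 to 12) higher in the bipolar-like class. No interval of one class reached the other. Ciart (ENSMUSG00000038550, chr3:95878500-95882257), which encodes a repressor of ARNTL and CLOCK, was at 22.9, 12.9 and 15.8 CPM in bipolar-like nuclei and at 2.31, 2.22 and 1.81 CPM in rod-like nuclei of WIF1-2w, WIF1-4w and Ctrl. The rod values rest on 10, 16 and 10 Ciart UMIs, and the ratios were 9.93 (5.15 to 21.4), 5.82 (3.35 to 10.7) and 8.74 (4.57 to 18.8). Overlapping neighbours Sphk2 (Dbp) and C920021L13Rik (Ciart) leave some reads of both genes uncertain, since the use of strand in counting is not given in the sources used here.

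Among the repressors of the Per family, Per2 (ENSMUSG00000055866, chr1:91415977-91459351) had the widest gap. Per2 was at 64.2, 58.3 and 52.0 CPM in bipolar-like nuclei and at 7.40, 8.61 and 6.50 CPM in rod-like nuclei of WIF1-2w, WIF1-4w and Ctrl. Bipolar over rod, Per2 was 8.68 (5.99 to 13), 6.77 (5.15 to 9.03) and 7.99 (5.66 to 11.6). Per1 (ENSMUSG00000020893, chr11:69095108-69109965) was nearer between the classes, at 2.76 (2.10 to 3.65), 1.96 (1.52 to 2.53) and 1.75 (1.34 to 2.29). Per3 (ENSMUSG00000028957, chr4:150997018-151044707) was also nearer than Per2, at 2.59 (2.25 to 2.99), 2.12 (1.89 to 2.39) and 2.43 (2.13 to 2.78). Cry1 (ENSMUSG00000020038, chr10:85131700-85185054), the late repressor, was not separated from 1 in any library, at 0.916 (0.747 to 1.12), 1.15 (0.988 to 1.34) and 1.08 (0.926 to 1.26).

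The nuclear receptor genes were split. Nr1d1 (ENSMUSG00000020889, chr11:98767932-98775377) was at 140, 104 and 112 CPM in bipolar-like nuclei of WIF1-2w, WIF1-4w and Ctrl, against 122, 144 and 141 Nr1d1 UMIs, or 28.2 CPM in WIF1-2w and 25.5 CPM in Ctrl, in the rod-like nuclei. Bipolar over rod, Nr1d1 was 4.97 (4.08 to 6.10), 5.2 (4.33 to 6.28) and 4.39 (3.66 to 5.30). Its paralogue Nr1d2 (ENSMUSG00000021775, chr14:18204056-18239106) was nearer to even, at 1.75 (1.52 to 2.01), 1.49 (1.36 to 1.64) and 1.65 (1.49 to 1.82), so in WIF1-4w it was just under the 1.5-fold rule. Nr1d1 overlaps its antisense neighbour Thra, whereas Nr1d2 had no gene within 1000 bases.

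The activator genes went the other way or little at all. Arntl (ENSMUSG00000055116, chr7:113178471-113314126) was at 123 CPM (112 to 134) in WIF1-2w, 107 CPM (98.3 to 115) in WIF1-4w and 94.4 CPM (87.1 to 102) in Ctrl in bipolar-like nuclei. In rod-like nuclei Arntl was at 231 CPM (217 to 246), 245 CPM (234 to 257) and 229 CPM (216 to 242). The ratios were 0.533 (0.476 to 0.594), 0.435 (0.396 to 0.478) and 0.413 (0.374 to 0.455). Rod RNA reached bipolar-like nuclei in each library, as the rod markers show, and its part in the Arntl level there was not tested. Clock (ENSMUSG00000029238, chr5:76209868-76305603) was 0.864 (0.772 to 0.967), 0.778 (0.719 to 0.841) and 0.888 (0.818 to 0.963) in bipolar-like over rod-like nuclei, short of 1.5-fold in every library.

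The order of the first 5 classes, with endothelial-like nuclei left out, was alike for some genes and not for others. Bipolar-like and Müller-like nuclei were the 2 highest classes for Nr1d1 in each library, with overlapping intervals, and rod-like nuclei had the lowest value. Dbp was highest in bipolar-like and lowest in rod-like nuclei of each library; Müller-like nuclei came second, with 91.7, 82.5 and 146 CPM in WIF1-2w, WIF1-4w and Ctrl. For Dbp, the bipolar-like interval stood clear of the Müller-like one in each library. Per2 was highest in bipolar-like and lowest in rod-like nuclei, and Per3 was lowest in rod-like nuclei, clear of the next class in each library. Arntl was highest in rod-like nuclei of all 3 libraries, but in Ctrl its interval met that of Müller-like nuclei, at 191 CPM (152 to 237). The highest class was not the same in every library for Nr1d2, Ciart, Per3, Cry1 and Clock. Neighbouring classes in the order for Cry1 did not separate in any library. Endothelial-like nuclei held few clock UMIs, and Arntl, with 13, 37 and 35 UMIs, was the 1 member to reach 30. Per3 there was at 0.755, 0.419 and 0.213 of its rod-like level in WIF1-2w, WIF1-4w and Ctrl, on 5, 5 and 2 UMIs.

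The genes were split into opposite arms of a phase index. It is the UMIs of Per1, Per2, Per3, Dbp, Ciart, Nr1d1 and Nr1d2 over those of Arntl, Clock and Cry1 in the same nuclei. The second arm is mixed, since Clock cycles weakly and Cry1 is itself switched on by ARNTL and CLOCK. In Ctrl, Clock gave 1151 of its 2712 UMIs in rod-like and 1204 of 2196 in bipolar-like nuclei. Whether a gap between classes in the index is one of phase was not tested. A ratio within one library does not depend on how libraries are scaled. The index was 2.48 (2.32 to 2.65) in WIF1-2w, 2.00 (1.90 to 2.12) in WIF1-4w and 2.16 (2.06 to 2.28) in Ctrl for bipolar-like nuclei. It was 0.495 (0.457 to 0.535), 0.465 (0.439 to 0.492) and 0.475 (0.444 to 0.507) for rod-like nuclei. Bipolar-like nuclei thus stood 5.01-fold (4.52 to 5.55), 4.31-fold (3.98 to 4.67) and 4.56-fold (4.19 to 4.96) above rod-like nuclei. Cone-like nuclei, at 1.53, 1.04 and 1.33, and Müller-like nuclei, at 2.01, 1.51 and 1.48, lay between them. Amacrine-like nuclei were at 1.57, 0.826 and 1.24 in WIF1-2w, WIF1-4w and Ctrl.

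**Figure D2:**
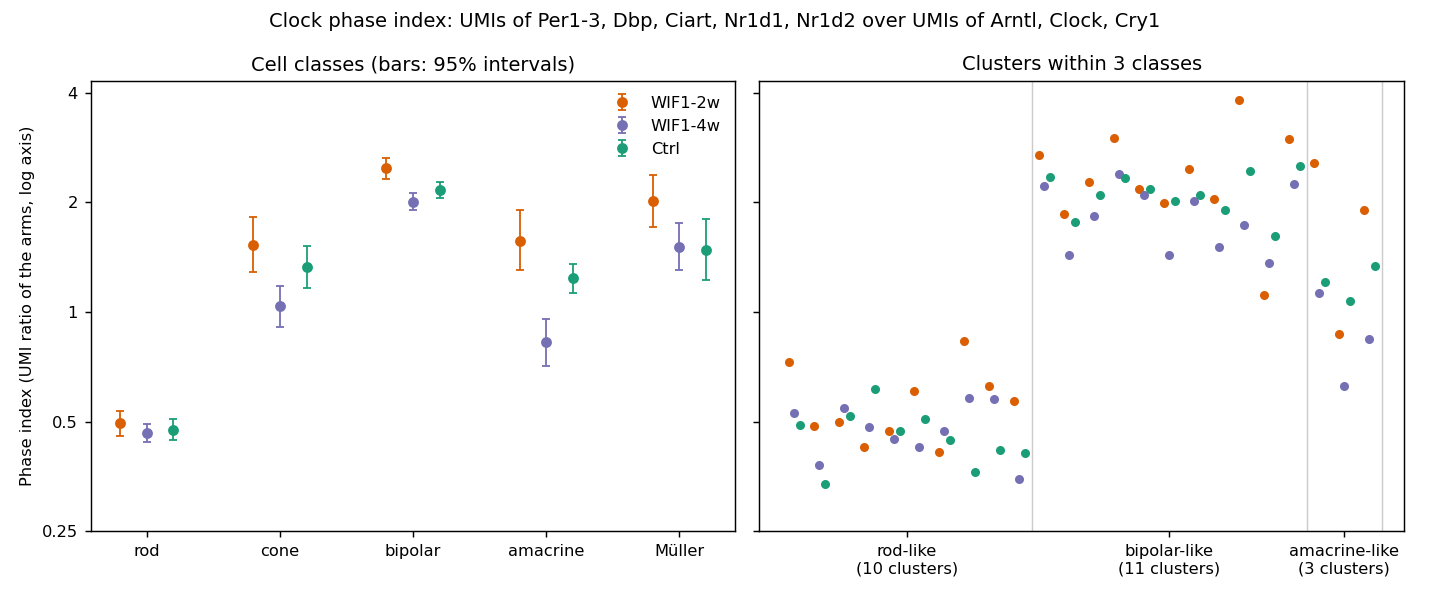
Clock phase index (log axis) by class, with 95% intervals, and by cluster within the rod-like, bipolar-like and amacrine-like classes, for WIF1-2w, WIF1-4w and Ctrl. All 11 bipolar-like clusters lie above all 10 rod-like clusters in each library, while the 3 libraries overlap within both classes.

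The gap between classes did not rest on a few clusters. The lowest of 11 bipolar-like clusters had an index of 1.11 in WIF1-2w, 1.36 in WIF1-4w and 1.62 in Ctrl. The highest of 10 rod-like clusters had 0.833, 0.579 and 0.615. In each library every bipolar-like cluster was therefore above every rod-like cluster. Within the bipolar-like class in Ctrl, members varied between clusters by different amounts: Nr1d2 ranged from 152 to 254 CPM and Clock from 139 to 249 CPM. Dbp ranged wider, from 84.6 to 317 CPM, and Per2 from 11.3 to 82.0 CPM.

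Between libraries the clock genes differed less than between classes. Over 5 classes, 7 of 42 class-by-gene values with at least 30 UMIs (16.7%) were 1.5-fold apart in WIF1-2w over Ctrl, and 6 of 43 (14.0%) in WIF1-4w over Ctrl. Both comparisons use the same control library. In rod-like nuclei 0 of 9 tested genes passed in either comparison, where 18.3% of all genes passed at WIF1-2w and 6.85% at WIF1-4w. Ciart was the member with too few UMIs. Rod values past the mark at WIF1-2w came with other settings, for Dbp at 1.76 with clusters weighted equally and for Per2 at 1.94 with nuclei of at least 1000 UMIs. In bipolar-like nuclei Per1 alone of 10 passed at WIF1-2w, as higher, where 7.69% of all genes did, and 0 of 10 passed at WIF1-4w, where 5.34% passed either way. In cone-like nuclei Dbp and Clock were lower at WIF1-2w, 2 of 7 against 13.7% of all genes. Nr1d1 and Dbp were lower at WIF1-4w, 2 of 7 against 8.08%. In Müller-like nuclei Dbp was lower in both, 1 of 7 at WIF1-2w against 14.3% of all genes and 1 of 8 at WIF1-4w against 7.71%. In amacrine-like nuclei Per1, Per2 and Per3 were higher at WIF1-2w, 3 of 9 against 11.8% of all genes. With median-of-ratios scaling Per3 there and Dbp in Müller-like nuclei did not reach the mark at WIF1-2w, while Per1 in Müller-like nuclei passed. At WIF1-4w Arntl was higher, 1 of 9 against 12.5%, and Nr1d1 and Dbp were lower, 2 of 9 against 19.7%. The median log2 ratio of the tested members in bipolar-like nuclei was 0.32 at WIF1-2w and 0.02 at WIF1-4w, where that of all genes was 0.01 in both. In rod-like nuclei the members' median was 0.15 and 0.10, beside 0.05 and 0.04 for all genes. Shares over so few genes are counts only, and no call here singles the clock genes out.

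**Figure D3:**
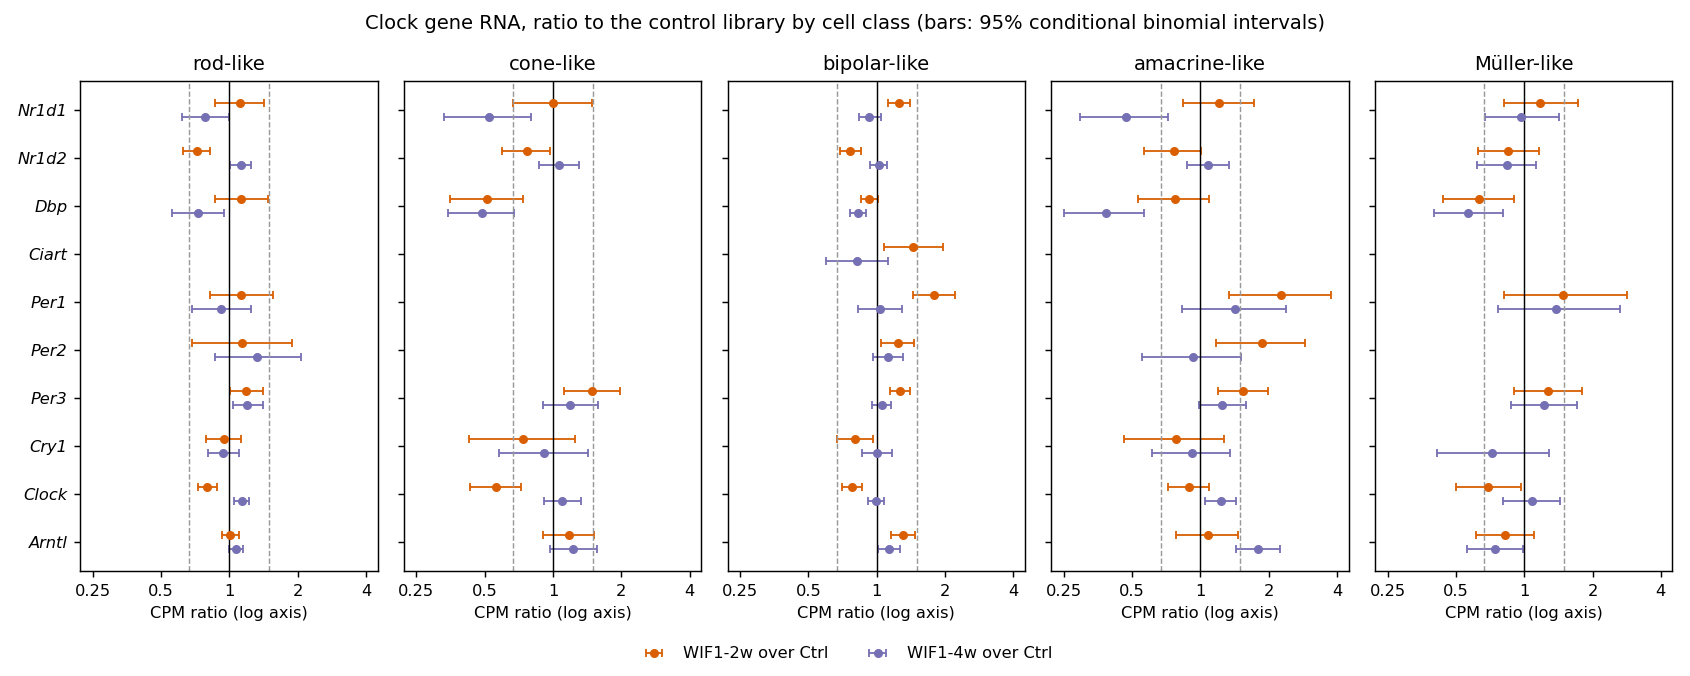
CPM ratio (log axis) of WIF1-2w over Ctrl and of WIF1-4w over Ctrl for the clock genes with at least 30 UMIs, by class; bars are 95% conditional binomial intervals and dashed lines mark 1.5-fold either way. Clock and Nr1d2 lie left of 1 at WIF1-2w in rod-like, cone-like and bipolar-like nuclei, and Dbp lies left of the dashed line in cone-like and Müller-like nuclei in both comparisons.

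Of the 10 genes, Dbp was the one past the rule in 2 classes of both WIF1 libraries, although with median-of-ratios scaling its Müller-like ratio at WIF1-2w was 0.675, just short of it. Dbp in cone-like nuclei was at 46.8 CPM (33.9 to 63.1) in WIF1-2w and 44.0 CPM (33.3 to 57.2) in WIF1-4w, against 91.0 CPM (74.7 to 110) in Ctrl. The ratios to Ctrl were 0.514 (0.353 to 0.739) and 0.484 (0.344 to 0.674), and both WIF1 intervals lay below that of Ctrl. Dbp in Müller-like nuclei was at 91.7 and 82.5 CPM in WIF1-2w and WIF1-4w, against 146 CPM in Ctrl, ratios of 0.630 (0.440 to 0.903) and 0.566 (0.399 to 0.806). In amacrine-like nuclei it was at 63.1 and 31.4 CPM against 82.1 CPM, ratios of 0.769 (0.530 to 1.09) and 0.383 (0.25 to 0.566). Dbp in bipolar-like nuclei was closer to Ctrl, at 0.928 (0.848 to 1.01) and 0.824 (0.759 to 0.895), and in rod-like nuclei at 1.13 (0.862 to 1.48) and 0.730 (0.560 to 0.952). The rod-like ratio at WIF1-2w was 1.76 with clusters weighted equally. Of these 10 Dbp ratios 9 were under 1, and the interval of 7 excluded 1, in each case as lower than Ctrl. The 11 rod markers, which measure rod RNA in other classes, also differed between libraries. They summed to 1690, 3281 and 7433 CPM in Müller-like nuclei and to 8697, 7331 and 9070 CPM in cone-like nuclei of WIF1-2w, WIF1-4w and Ctrl. Without Müller-like nuclei of over 25% rod chromatin, the Dbp ratios there were 0.535 and 0.504.

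The Per genes, repressors that light and other acute signals also induce, were mostly higher in WIF1-2w. Per1 in bipolar-like nuclei was at 48.5 CPM (41.8 to 55.9) in WIF1-2w and 28 CPM (23.8 to 32.7) in WIF1-4w, against 27.1 CPM (23.3 to 31.4) in Ctrl. WIF1-2w stood apart, at 1.79-fold (1.45 to 2.21) Ctrl, and it was higher in 7 of 7 bipolar-like clusters with at least 10 UMIs, while WIF1-4w was at 1.03 (0.827 to 1.29). Per1 in amacrine-like nuclei was at 41.5 and 26.0 CPM against 18.3 CPM in Ctrl, ratios of 2.27 (1.34 to 3.77) and 1.42 (0.832 to 2.37). Per1 in rod-like nuclei was at 17.6, 14.3 and 15.5 CPM, with intervals that overlap. Per2 in bipolar-like nuclei was 1.24 (1.04 to 1.46) at WIF1-2w and 1.12 (0.961 to 1.31) at WIF1-4w over Ctrl. In amacrine-like nuclei Per2 was at 49.9 and 24.9 CPM against 26.8 CPM, with 1.86 (1.17 to 2.89) at WIF1-2w. At WIF1-4w it was 0.928 of Ctrl, and 1.51 without the cluster that also held ganglion cell markers. Per3 over Ctrl at WIF1-2w was 1.19 (1.01 to 1.41) in rod-like, 1.48 (1.12 to 1.97) in cone-like, 1.27 (1.14 to 1.40) in bipolar-like and 1.54 (1.19 to 1.98) in amacrine-like nuclei. All 4 Per3 intervals lay above 1; at WIF1-4w those ratios were 1.20, 1.19, 1.05 and 1.25, and the rod-like interval alone did.

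Cry1, the late repressor, passed the 1.5-fold rule in 0 classes. Cry1 in bipolar-like nuclei was at 46.1 CPM (39.6 to 53.4) in WIF1-2w and 57.7 CPM (51.6 to 64.4) in WIF1-4w, against 57.6 CPM (52.0 to 63.8) in Ctrl. Its ratio at WIF1-2w was 0.801 (0.666 to 0.959). In rod-like nuclei Cry1 was at 50.4, 50.1 and 53.3 CPM, and intervals of every Cry1 ratio to Ctrl outside the bipolar-like class held 1. In amacrine-like nuclei the Cry1 ratio at WIF1-4w was 0.92, but 0.449 without the cluster that also held ganglion cell markers. At WIF1-2w Cry1 was at 0.616 there without that cluster.

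Clock and Nr1d2 were lower in WIF1-2w than in the other 2 libraries in several classes. Clock, the partner of ARNTL, was at 166 CPM (154 to 179) in rod-like nuclei of WIF1-2w and 236 CPM (225 to 248) in those of WIF1-4w, against 208 CPM (196 to 220) in Ctrl. That is 0.80 (0.728 to 0.879) and 1.14 (1.05 to 1.22) of Ctrl, and Clock was lower at WIF1-2w in 10 of 10 rod-like clusters. At WIF1-4w it was higher in 6 of the 10 and lower in 4, and 0.93 of Ctrl with clusters weighted equally. In cone-like nuclei Clock was at 96.9 and 191 CPM against 174 CPM, in bipolar-like nuclei at 144 and 184 CPM against 185 CPM, and in Müller-like nuclei at 115 and 179 CPM against 166 CPM. The WIF1-2w ratios of Clock were 0.558 (0.430 to 0.719), 0.779 (0.704 to 0.862) and 0.694 (0.501 to 0.964), all under 1. Nr1d2, which represses Arntl, was at 77.4 CPM (69.4 to 86.2) in rod-like nuclei of WIF1-2w and 121 CPM (113 to 129) in those of WIF1-4w, against 108 CPM (99.2 to 117) in Ctrl. Its WIF1-2w ratios to Ctrl were 0.719 (0.627 to 0.824) in rod-like, 0.764 (0.598 to 0.972) in cone-like and 0.765 (0.688 to 0.848) in bipolar-like nuclei. Nr1d2 was lower at WIF1-2w in 7 of 7 rod-like clusters and 9 of 11 bipolar-like ones. In rod-like nuclei of WIF1-4w it was higher in 4 of 8 clusters and lower in 4, and 0.995 of Ctrl with clusters weighted equally. Clock and Nr1d2 belong to opposite arms of the index. WIF1-2w was the library of lowest depth per nucleus and of low Gm42418 and AY036118, and the part of these in the Clock and Nr1d2 values was not tested.

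Nr1d1, the other receptor gene, did not follow Nr1d2. Nr1d1 in bipolar-like nuclei was at 140 CPM (129 to 153) in WIF1-2w and 104 CPM (95.7 to 113) in WIF1-4w, against 112 CPM (104 to 120) in Ctrl, ratios of 1.25 (1.12 to 1.40) and 0.929 (0.832 to 1.04). It was higher at WIF1-2w in 10 of 11 bipolar-like clusters. In cone-like nuclei Nr1d1 was at 51.2 and 26.7 CPM against 51.4 CPM, and in amacrine-like nuclei at 69.8 and 27.1 CPM against 57.6 CPM. WIF1-4w was therefore the low library in these 2 classes, with Nr1d1 ratios of 0.520 (0.331 to 0.803) and 0.470 (0.295 to 0.722). In all 3 amacrine-like clusters Nr1d1 and Dbp were lower at WIF1-4w than in Ctrl.

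Ciart had too few UMIs outside bipolar-like nuclei for the 30-UMI rule. In bipolar-like nuclei it was at 22.9 CPM (18.4 to 28.2) in WIF1-2w and 12.9 CPM (10.1 to 16.3) in WIF1-4w, against 15.8 CPM (12.9 to 19.1) in Ctrl, ratios of 1.45 (1.08 to 1.95) and 0.819 (0.598 to 1.12). Müller-like nuclei held 22 Ciart UMIs in WIF1-2w and 3 in WIF1-4w, against 3 in Ctrl. As levels these are 30.6, 3.44 and 6.83 CPM, and the WIF1-2w ratio of 4.48 has an interval of 1.35 to 23.4.

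Arntl was higher than Ctrl in bipolar-like nuclei of both WIF1 libraries and in amacrine-like nuclei of WIF1-4w. Arntl in bipolar-like nuclei was at 123 and 107 CPM in WIF1-2w and WIF1-4w, against 94.4 CPM in Ctrl, ratios of 1.30 (1.15 to 1.47) and 1.13 (1.01 to 1.27). In rod-like nuclei, where it was highest, Arntl was even across libraries, at 1.01 (0.928 to 1.10) and 1.07 (0.996 to 1.15). Arntl in Müller-like nuclei was at 157 and 142 CPM against 191 CPM in Ctrl, ratios of 0.822 (0.614 to 1.10) and 0.743 (0.559 to 0.992). Without nuclei of over 25% rod chromatin, which were 10.1% and 10.7% of Müller-like nuclei in WIF1-2w and WIF1-4w and 27.2% in Ctrl, these Arntl ratios were 0.967 and 0.853. Arntl in amacrine-like nuclei was at 88.1 and 146 CPM against 81.7 CPM, and WIF1-4w was 1.79-fold (1.43 to 2.23) Ctrl. Of the 135 Arntl UMIs there, 1 nucleus held 15 and 5 nuclei held 36.3%, and the ratio of mean levels per nucleus was 1.09. The amacrine-like class of WIF1-4w also had 4122789 ATAC counts in 157 nuclei, against 4121423 in 511 nuclei of Ctrl, and rod markers of 10288 CPM, against 5960 CPM. Without nuclei of over 25% rod chromatin the Arntl ratio was 2.25. Cluster 28, which also held ganglion cell markers, gave 46 of the 225 amacrine-like nuclei of WIF1-2w and 55 of 157 in WIF1-4w, against 294 of 511 in Ctrl. Without that cluster the Arntl ratio at WIF1-4w was 1.47.

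The phase index asks whether the 2 arms moved apart. In rod-like nuclei it did not separate from Ctrl, at 1.04 (0.940 to 1.16) for WIF1-2w and 0.979 (0.897 to 1.07) for WIF1-4w. In bipolar-like nuclei the ratios were 1.14 (1.05 to 1.25) and 0.926 (0.859 to 0.998), higher in 9 of 11 clusters at WIF1-2w and lower in 10 of 11 at WIF1-4w. Amacrine-like nuclei were at 1.27 (1.03 to 1.57) and 0.668 (0.561 to 0.795), and Müller-like nuclei at 1.36 (1.05 to 1.76) and 1.02 (0.799 to 1.30). Without nuclei of over 25% rod chromatin the Müller-like ratios were 1.08 and 0.885. Cone-like nuclei were at 1.15 (0.925 to 1.44) and 0.781 (0.645 to 0.945). Every index ratio at WIF1-2w was above 1, but its direction in 3 classes depended on Clock. Without Clock it was 0.955 in rod-like, 0.852 in cone-like and 0.957 in bipolar-like nuclei. With Dbp, Ciart, Per3 and Nr1d1 over Arntl alone it was 0.857 (0.75 to 0.981) in bipolar-like nuclei. At WIF1-4w that narrower index was 0.807 (0.712 to 0.916) in bipolar-like, 0.611 (0.450 to 0.828) in cone-like and 0.417 (0.314 to 0.555) in amacrine-like nuclei, against 0.934 (0.818 to 1.07) in rod-like and 1.19 (0.837 to 1.69) in Müller-like ones. In bipolar-like nuclei of WIF1-2w both arms were mixed. Of the first arm, the Per genes, Ciart and Nr1d1 were higher, Nr1d2 was lower and the Dbp interval held 1. Of the second arm, Arntl at 1.30 was higher, while Clock at 0.779 and Cry1 at 0.801 were lower. Time of collection, which the labels do not give, was not tested and cannot be told apart from the groups. Differences between individual mice cannot be told apart from the groups either.

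Over all kept nuclei together the index was 1.33 (1.28 to 1.39) in WIF1-2w and 0.990 (0.959 to 1.02) in WIF1-4w, against 1.24 (1.20 to 1.28) in Ctrl. The WIF1-4w ratio of 0.798 (0.762 to 0.836) is lower than the ratios of 0.979 and 0.926 in its 2 largest classes. The share of rod-like nuclei, with the lowest index of the first 5 classes, was 63.6% in WIF1-2w and 67.6% in WIF1-4w, against 58.0% in Ctrl. That of bipolar-like nuclei was 18.4% and 18.6%, against 23.1%. The WIF1-2w ratio over all kept nuclei was 1.07 (1.02 to 1.13). The part of the class shares in these ratios was not tested.

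Open chromatin at the gene starts gave a second readout from the same nuclei. ATAC counts in peaks within 1000 bases of the start were taken as a share of a wider set of counts of the class. That set, called promoter counts here, was all peaks within 1000 bases of the interval that the files list for any gene. It held between 61.1% (Müller-like, WIF1-2w) and 74.8% (rod-like, Ctrl) of the ATAC counts of a class. Bipolar over rod, Dbp and Ciart were the 2 of 10 genes past 1.5-fold in each library, both higher, where 32.7% of all promoters were in WIF1-2w, 29.1% in WIF1-4w and 28.5% in Ctrl. None of the 10 was that much lower, where 10.0%, 11.2% and 9.11% of promoters were. Dbp was at 265, 291 and 297 CPM of the promoter counts in bipolar-like nuclei and at 171, 173 and 193 in rod-like nuclei of WIF1-2w, WIF1-4w and Ctrl. The Dbp ratios were 1.55 (1.47 to 1.63), 1.68 (1.59 to 1.76) and 1.54 (1.44 to 1.64). Ciart, whose promoter above holds 3 E-boxes, was at 149, 153 and 155 in bipolar-like nuclei and 68.8, 68.8 and 73.7 in rod-like nuclei, ratios of 2.16 (2.01 to 2.33), 2.22 (2.06 to 2.39) and 2.10 (1.91 to 2.32). Arntl was the lowest of the 10 in each library, at 0.691 (0.655 to 0.728), 0.675 (0.640 to 0.711) and 0.670 (0.627 to 0.716). The Clock promoter was at 0.781 (0.727 to 0.839), 0.850 (0.795 to 0.908) and 0.860 (0.793 to 0.933). Direction of RNA and promoter counts thus went together for Dbp, Ciart, Arntl and Clock, with intervals that excluded 1 in each library. For Nr1d1 they did not: its RNA was over 4-fold higher in bipolar-like nuclei while its promoter share was 0.734 (0.701 to 0.768), 0.740 (0.708 to 0.773) and 0.825 (0.780 to 0.873) of that in rod-like nuclei. Per2, with RNA far apart, had promoter ratios of 1.07, 1.08 and 1.02, and Per1, with its E-box, 0.860, 0.814 and 0.831.

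**Figure D4:**
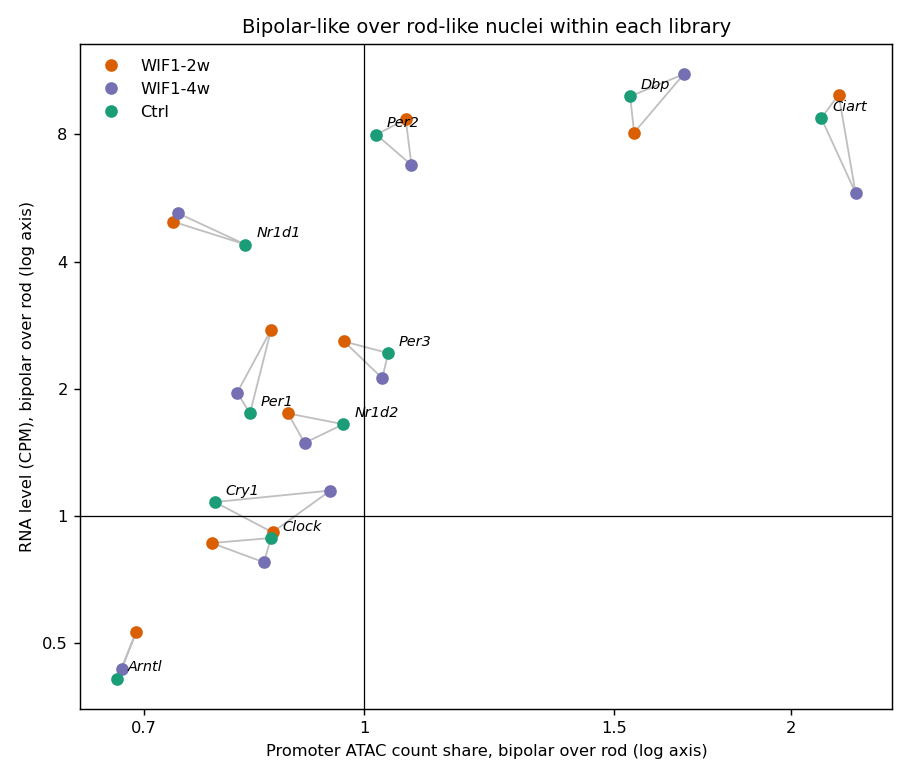
RNA ratio (vertical, log axis) against promoter ATAC ratio (horizontal, log axis) of bipolar-like over rod-like nuclei for the 10 clock genes; each gene has 1 point for WIF1-2w, WIF1-4w and Ctrl, joined by lines. Dbp and Ciart lie high on both axes, Arntl low on both, and Nr1d1 is high in RNA with a promoter ratio under 1.

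Between libraries few clock gene promoters were far apart. In rod-like, cone-like, bipolar-like and Müller-like nuclei 0 of 10 genes were 1.5-fold apart from Ctrl in either WIF1 library. Of all promoters, the share past that mark in rod-like nuclei was 11.2% higher and 10.8% lower at WIF1-2w, and 7.08% higher and 8.57% lower at WIF1-4w. In cone-like nuclei it was 6.87% and 8.60% at WIF1-2w and 4.06% and 6.60% at WIF1-4w, in the same order. In bipolar-like nuclei it was 11.3% and 6.55%, then 5.32% and 6.38%, and in Müller-like nuclei 16.8% and 14.2%, then 11.8% and 9.93%. Ciart in amacrine-like nuclei of WIF1-2w was the exception, at 1.58 (1.33 to 1.87), where 6.95% of promoters were higher and 17.7% lower. At WIF1-4w 0 of 10 passed there, where 4.75% were higher and 18.5% lower. Narrower windows changed this for Nr1d1 at WIF1-2w, which with peaks within 500 bases was at 0.519 in cone-like, 0.590 in bipolar-like and 0.664 in Müller-like nuclei. Per kb of peak, the Clock promoter at WIF1-2w was at 0.652 in bipolar-like nuclei. The Clock promoter was the lowest member at WIF1-2w in rod-like nuclei, at 0.820 (0.775 to 0.867), in cone-like nuclei, at 0.728 (0.595 to 0.891), in bipolar-like nuclei, at 0.744 (0.678 to 0.817), and in amacrine-like nuclei, at 0.747 (0.624 to 0.891). Clock RNA was also lower in those 4 classes, although its amacrine-like interval held 1. In Müller-like nuclei the Clock promoter was at 1.23 (0.914 to 1.67) while its RNA was lower. The Dbp promoter in cone-like nuclei was at 0.797 (0.684 to 0.931) and 0.827 (0.708 to 0.968) of Ctrl in WIF1-2w and WIF1-4w, beside the lower Dbp RNA there. The Nr1d2 promoter was not lower at WIF1-2w, at 1.13 (1.09 to 1.17) in rod-like and 1.03 (0.982 to 1.09) in bipolar-like nuclei. Peaks were called in each library by the authors, so the window of counted bases differs between libraries. For Clock it was 1532 bases in WIF1-2w, 1410 in WIF1-4w and 1342 in Ctrl.

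Other core clock and output genes, a list of 28, lay on both sides. At least 1.5-fold higher in bipolar-like than in rod-like nuclei were 11 of 25 tested genes in WIF1-2w, 13 of 26 in WIF1-4w and 12 of 25 in Ctrl, and lower were 5, 4 and 3. Of all genes, 27.8%, 28.3% and 29.0% were that much higher and 30.9%, 28.8% and 27.5% lower. Cry2, a CRY repressor, was 5.19, 6.30 and 5.68 times its rod-like level in bipolar-like nuclei of WIF1-2w, WIF1-4w and Ctrl. Hlf and Tef, relatives of Dbp that bind the same D-box, were at 14.3, 11.7 and 9.33 and at 2.83, 2.88 and 3.42. Npas2, which can stand in for CLOCK, was at 17.5, 44.0 and 16.1 on 6, 4 and 7 rod UMIs, and Bhlhe40, an E-box repressor, at 13.2, 35.0 and 17.8. Rora, an activator of Arntl, was at 6.54, 5.12 and 5.84. Its relative Rorb was nearer even, at 1.31, 1.02 and 1.32. Bhlhe41, at 1.02, 1.52 and 1.36, passed the rule in WIF1-4w, and the D-box repressor gene Nfil3, at 0.929, 1.49 and 1.53, in Ctrl. Lower in bipolar-like nuclei of all 3 libraries were Drd4, a dopamine receptor gene known from photoreceptors, at 0.144, 0.173 and 0.154, Adcy1, an adenylyl cyclase gene, at 0.308, 0.211 and 0.267, and Ddx5.

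Between libraries these 28 genes were read by the same rule. In rod-like nuclei 3 of 21 were past 1.5-fold at WIF1-2w, all higher, where 11.9% of all genes were higher and 6.41% lower: Bhlhe41 at 1.64 (1.42 to 1.90), Csnk1e and Ddx5. At WIF1-4w 0 of 21 were, where 2.26% of all genes were higher and 4.59% lower. In bipolar-like nuclei Sik1, a kinase gene induced by acute signals, was the 1 of 25 at WIF1-2w, at 3.26 (2.09 to 5.16), beside 7.69% of all genes higher and 8.08% lower. At WIF1-4w 0 of 26 passed, beside 1.53% and 3.81%. In Müller-like nuclei 3 of 17 were higher at WIF1-2w and 2 lower, where 15.7% and 14.3% of all genes were. At WIF1-4w 0 of 18 were higher and 1 lower, where 9.31% and 7.71% were. Btrc was lower at WIF1-2w, and Drd4 was lower in both, at 0.204 (0.0964 to 0.400) and 0.475 (0.289 to 0.781), beside the lower rod marker level of both WIF1 libraries in this class. Ddx5, an RNA helicase gene, was at 2.10 (2.04 to 2.16) in rod-like and 2.05 (1.82 to 2.31) in Müller-like nuclei of WIF1-2w. In amacrine-like nuclei 1 of 23 was higher and 3 were lower at WIF1-2w, where 11.8% and 20.7% of all genes were. At WIF1-4w 3 of 23 were higher and 5 lower, where 12.5% and 19.7% were. In bipolar-like nuclei Cry2 was at 1.04 and 1.03, Tef at 1.06 and 1.05, Hlf at 1.17 and 1.06, Rora at 0.991 and 0.951 and Rorb at 0.980 and 1.04 in WIF1-2w and WIF1-4w.

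Since Per1 and Per2 also answer to acute signals, 12 genes induced through CREB and 11 induced by glucocorticoids were read beside them. At WIF1-2w 4 of 5 tested genes of the first list were higher in rod-like nuclei, where 11.9% of all genes were: Nr4a1 at 4.06 (2.84 to 5.91), Nr4a2 at 2.56 (1.33 to 5.12), Junb at 2.52 (1.88 to 3.41) and Fos at 2.26 (1.37 to 3.81). In bipolar-like nuclei 5 of 8 were higher, where 7.69% of all genes were, among them Egr1 at 2.35 (1.87 to 2.96), Dusp1 at 2.13 (1.61 to 2.83) and Fos at 2.02 (1.65 to 2.47). Fos in Müller-like nuclei had 56 UMIs in WIF1-2w against 3 in Ctrl, a ratio of 11.4 (3.71 to 56.9). In rod-like nuclei of WIF1-4w 2 of 5 were higher, where 2.26% of all genes were, Nr4a1 at 1.73 (1.18 to 2.56) and Dusp1 at 1.54 (0.878 to 2.78). At WIF1-4w 0 of 8 were higher in bipolar-like nuclei and 3 were lower, where 1.53% and 3.81% of all genes were, Egr1 most, at 0.408 (0.286 to 0.573). Per1 in bipolar-like nuclei was highest in the library in which 5 of these 8 genes were highest. Other classes did not run alike: Per1 in rod-like nuclei did not separate from Ctrl at WIF1-2w. In amacrine-like nuclei 2 of 6 list genes were higher at WIF1-2w and 4 of 6 lower at WIF1-4w, beside 11.8% and 19.7% of all genes. Per1 there was higher than Ctrl at WIF1-2w, and its WIF1-4w interval held 1. The part of these genes in the Per1 level was not tested. Of the glucocorticoid list, 0 of 8 passed in rod-like nuclei at WIF1-2w, where 18.3% of all genes passed either way. At WIF1-4w 1 of 8, Mt2 at 0.398 (0.245 to 0.634), was lower there, beside 4.59% of all genes. In bipolar-like nuclei at WIF1-2w 1 of 9 was higher, Per1 itself, and 1 lower, Sgk1, beside 7.69% and 8.08% of all genes. In Müller-like nuclei Mt2 was at 2.34 (1.70 to 3.28) and Sgk1 at 0.170 (0.0751 to 0.349) at WIF1-2w.

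Only 4 members had at least 30 UMIs in each of the 15 points made by 5 classes and 3 libraries. They were compared among the 2222 genes with at least 30 UMIs in every point. The measure was the Pearson correlation of log2(CPM + 10) over the points, each gene centred on its mean in the class. The points share libraries and nuclei, so the values only describe them. Clock ran closest to Dyrk1a (0.97), Pum2 (0.96) and Mga (0.96), and Nr1d2 to Nptn, Zc3h13 and Gphn (0.96 each). Arntl ran closest to Nhlrc2 (0.95), Atp11a (0.94) and Ncoa2 (0.91), and Per3 to AU040320 (0.92), Pabpn1 (0.91) and Cnot3 (0.89). Among the members, Clock and Nr1d2 were at 0.80 with each other, and Per3 was at -0.58 with Clock and -0.68 with Nr1d2.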

How the data were processed

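Nuclei were isolated from live retinal cells dissociated with papain, and RNA and ATAC libraries were made from the same nuclei, per the labels' protocols. The submitters' processing notes name Cell Ranger ARC 2.0.1, Seurat 5.0.1, Signac 1.12.0 and the mm10 build, without their roles. The authors deposited raw counts, namely UMIs of each gene and ATAC counts of each peak by barcode, with peaks called in each library. The number of columns of other samples was 0.

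Barcodes under 500 UMIs or 300 detected genes, or with a mitochondrial share over 10%, were dropped, which with doublet removal left 8777 nuclei in WIF1-2w, 8830 in WIF1-4w and 7134 in Ctrl. Total RNA counts were 14568384, 19997276 and 21805441 UMIs. Doublets were scored with Scrublet in scanpy 1.11.5, and the top scores were removed at 0.8% per 1000 barcodes, since its automatic threshold called 368, 312 and 0. Clustering used 2000 variable genes without the clock genes, 30 principal components, 15 neighbours and Leiden resolution 1 (leidenalg 0.10.2, scikit-learn 1.9.0, igraph 0.11.9). Clusters were named from marker lists by a scoring rule chosen after seeing the data.

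The UMIs of each class were added up within a library and divided by the class total (CPM), with exact Poisson intervals; ratios have conditional binomial intervals (Python 3.11.15, scipy 1.17.1, numpy 2.4.6, pandas 2.3.3). A gene was called at 1.5-fold with at least 30 UMIs in the higher library. No test between groups was possible with 1 library per group. The scripts were tested on simulated data. All 10 clock genes were named in every class of at least 50 nuclei per library; other genes were named if at least 2-fold apart in rod-like, bipolar-like or Müller-like nuclei, or from a set that was always named. Bhlhe41 and Csnk1e in rod-like nuclei, Btrc in Müller-like nuclei and the callout of Arntl in single nuclei were added after their values were seen. The members and the lists were chosen with earlier results of these data known. Alternatives covered scaling, depth, doublets, clusters, index members and promoter windows. Spatial data of the study were not analysed here.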

Additional observations from a re-analysis of the deposited data

Results flagged for a closer look

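In 4 results the intervals of the WIF1-2w and WIF1-4w ratios to Ctrl lay on opposite sides of 1, which is why they are set out again. The differences were not tested, since each time point has 1 library. Nr1d2 in rod-like nuclei was 1.56-fold (1.38 to 1.78) higher in WIF1-4w than in WIF1-2w. Clock in rod-like nuclei was 1.42-fold (1.30 to 1.55) higher in WIF1-4w than in WIF1-2w. Both genes were below Ctrl in WIF1-2w and above it in WIF1-4w, but the second part did not hold in every cluster. At WIF1-4w Nr1d2 was higher than Ctrl in 4 rod-like clusters and lower in 4, and Clock was higher in 6 and lower in 4. With clusters weighted equally the WIF1-4w ratios to Ctrl were 0.995 for Nr1d2 and 0.93 for Clock.

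The clock phase index of WIF1-4w was 0.809 (0.742 to 0.882) of that of WIF1-2w in bipolar-like nuclei. In amacrine-like nuclei it was 0.526 (0.413 to 0.669). The index was above Ctrl in WIF1-2w and below it in WIF1-4w in both classes. In bipolar-like nuclei this depended on the members of the index. With Dbp, Ciart, Per3 and Nr1d1 over Arntl alone, both WIF1 libraries were below Ctrl there, at 0.857 and 0.807. WIF1-4w was then at 0.942 (0.822 to 1.08) of WIF1-2w. In amacrine-like nuclei that narrower index was 1.13 (0.794 to 1.63) and 0.417 (0.314 to 0.555) of Ctrl. WIF1-2w had the lowest depth per nucleus, and the part of depth in the 4 flagged results was not tested.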

How the results depend on the processing

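No paired analysis was possible because each group has 1 library. The CPM ratios to Ctrl stayed within their counting interval in 85 of 85 cases with median-of-ratios scaling. The same held with doublets kept, and with mitochondrial genes, Gm42418 and AY036118 left out of the total. Direction was not always fixed by this, since a ratio whose interval held 1 could cross 1. Median-of-ratios scaling still moved calls across 1.5-fold at WIF1-2w: Dbp in Müller-like and Per3 in amacrine-like nuclei were lost and Per1 in Müller-like nuclei was gained. With at least 1000 UMIs per nucleus 83 of 85 did not move by more than their interval. Weighting clusters equally, an alternative chosen after seeing the data, kept 77 of 85 and turned 3 round, all in rod-like nuclei of WIF1-4w: Nr1d2 to 0.995, Per3 to 0.984 and Clock to 0.93. With peaks within 500 bases, the rod-like promoter ratios at WIF1-4w turned round for Nr1d1, to 0.926, and for Dbp, to 1.02. The cause was not tested.

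The phase index depended on its members. With Dbp, Ciart, Per3 and Nr1d1 over Arntl alone, the WIF1-2w ratio turned round to 0.857 in bipolar-like nuclei and to 0.898 over all kept nuclei, and without Clock to 0.957 and 0.913. The narrower index also gave 0.843 and 0.611 in cone-like nuclei at WIF1-2w and WIF1-4w, and at WIF1-4w 0.807 in bipolar-like nuclei, 0.417 in amacrine-like nuclei and 0.661 over all. In rod-like nuclei of WIF1-2w, adding Tef, Hlf, Bhlhe41, Npas2 and Nfil3 gave 1.18 and equal clusters 1.24. Clustering each library alone gave 2.01 and 1.51 in Müller-like nuclei at WIF1-2w and WIF1-4w. The Müller-like class of Ctrl then took in a cluster of 212 nuclei with 9 rod markers raised, beside another of 132 nuclei. The part of that cluster in these ratios was not tested. Bipolar over rod, the narrower index was 8.31, 9.61 and 11.1 in WIF1-2w, WIF1-4w and Ctrl, the extended index 4.51 in WIF1-2w, and equal clusters 4.02 in WIF1-2w and 3.89 in WIF1-4w. Leaving out 1 member at a time, the index ratio ranged from 0.955 to 1.26 at WIF1-2w and 0.929 to 1.01 at WIF1-4w in rod-like nuclei. In cone-like nuclei it spanned 0.852 to 1.54 and 0.684 to 0.878, and in bipolar-like nuclei 0.957 to 1.36 and 0.886 to 0.979. The amacrine-like ranges were 1.15 to 1.46 and 0.588 to 0.763, the Müller-like ones 1.29 to 1.53 and 0.901 to 1.21. Over all kept nuclei it ranged from 0.913 to 1.27 and 0.751 to 0.865. Bipolar over rod it ranged from 3.99 to 6.35 in WIF1-2w, 3.35 to 6.27 in WIF1-4w and 3.38 to 6.43 in Ctrl. At 2-fold 1 clock gene value was called at WIF1-2w and 3 at WIF1-4w, and with at least 100 UMIs 4 at WIF1-2w. Depth limits Ciart, Per1 and Per2 most outside bipolar-like nuclei.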
